A study of Mus musculus with 4 samples.

Results

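The clustered histone genes were examined in polyA(+) RNA of spermatocytes early in meiosis, at the leptotene and zygotene (L/Z) stages. They were taken as all genes of the deposited table whose symbol starts with Hist1h, Hist2h, Hist3h or Hist4h, which gave 68 of 23980 genes. Of these, 3 encode testis variants and 65 are called replication histones here (5 H1, 17 H2A, 18 H2B, 12 H3 and 13 H4 genes). The Hist1 cluster held 51 of the 65 replication histone genes, the Hist2 cluster 10, the Hist3 cluster 3 and the Hist4 cluster 1.

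There were 4 libraries, each of a different genotype: a Dnmt3L heterozygote, a Dnmt3L KO, a Pld6 WT and a Pld6 KO. All came from F1 hybrids of C57BL/6J and MSM/Ms at 3 to 4 postnatal weeks, and all cells were sorted by FACS. DNMT3L is a cofactor of de novo DNA methylation in male germ cells, and PLD6 is a mitochondrial protein needed to make piRNAs. The Dnmt3L heterozygote and the Pld6 WT served as the 2 controls, and the control of its own line was the heterozygote for the Dnmt3L KO and the Pld6 WT for the Pld6 KO. The mutant testes hold no germ cells beyond zygotene. Each mutant had 1 library, so none of its values has a replicate check.

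Replication histones package newly made DNA, and their mRNAs accumulate in S phase. Their mRNAs normally end in a conserved stem-loop in place of a polyA tail. SLBP binds this stem-loop and the U7 snRNP directs the cut after it, so polyA selection favours the part of histone mRNA that carries a tail. The testis variants are Hist1h1t (the linker histone H1t), Hist1h2aa (TH2A) and Hist1h2ba (TH2B), which replace their somatic counterparts in male germ cells.

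The stem-loop is shown because it is the feature that sets these mRNAs apart from other mRNAs. A fully paired stem of 6 bases that starts GG, around a loop of 4 bases that starts TT, was found in GENCODE M21 transcripts of 44 of the 68 genes, and in 86 of 21834 other protein-coding genes (0.394%). It took 6 forms, and 1 gene of each is given here in the sense direction with the stem-loop in capitals and 7 bases on either side. Coordinates are those of GRCm38, the assembly also called mm10.
Hist1h1c (chr13:23739505-23739534, plus strand): tccaaaaGGCTCTTTTCAGAGCCaccactc
Hist1h1t (chr13:23696518-23696547, plus strand): acccaaaGGCTCTTTTAAGAGCCacttaca
Hist2h2ac (chr3:96220411-96220440, minus strand): ccaaaaaGGCTCTTTTTAGAGCCaccaaat
Hist1h4d (chr13:23581943-23581972, plus strand): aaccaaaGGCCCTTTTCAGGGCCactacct
Hist1h4i (chr13:22040959-22040988, minus strand): acttaaaGGCCCTTTTTAGGGCCaccacaa
Hist1h4j (chr13:21735430-21735459, plus strand): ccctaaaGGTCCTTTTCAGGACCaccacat

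The form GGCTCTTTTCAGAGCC was the most frequent, with 26 genes. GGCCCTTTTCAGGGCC (7 genes), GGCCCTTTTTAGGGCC (2 genes) and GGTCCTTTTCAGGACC (2 genes) were found in H4 genes only among the 68. The testis variant Hist1h1t carried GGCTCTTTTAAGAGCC, which was shared with 2 H2B and 3 H3 genes. No match was found in the transcripts of Hist1h2aa and Hist1h2ba, whose annotated transcripts had 390 and 384 bases. Their RefSeq gene models run past the 3' ends of these transcripts, to 23934913 for Hist1h2aa and 23933725 for Hist1h2ba. Those bases were not searched. A stem-loop past an annotated end would be missed, so a gene without a match may still have one. In 22 genes the annotated transcript ended within 100 bases of the stem-loop, and in 22 it ran more than 100 bases past it. The motif AATAAA lay in the last 40 bases of 9 transcripts that ran on and of 0 that ended near the stem-loop.

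The level of a gene is given as FPKM, the fragments scaled to transcript length and library depth. The median FPKM of the 65 replication histone genes was 4.57 in the Dnmt3L heterozygote, 2.55 in the Dnmt3L KO, 3.12 in the Pld6 WT and 3.57 in the Pld6 KO library. In each library this median lay above the level of 51.5% to 55.7% of all genes, which include 4026 to 6618 genes without a fragment in a library. The median of genes with a mean FPKM of at least 1 was 13.4, 13.3, 11.6 and 11.3 in the same order. The replication histone median thus lay below that of expressed genes. The 11 genes listed as replication-independent histone variants (such as H3f3a, H3f3b and H2afz) had a median FPKM of 53.3 to 86.4 in the same libraries. Of the 68 genes, 43 reached 1 FPKM in every library, 13 reached 10 FPKM in at least 1 library and 4 (Hist1h1b, Hist1h2ao, Hist2h3c1 and Hist2h4) stayed under 20 fragments in every library.

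**Figure D1:**
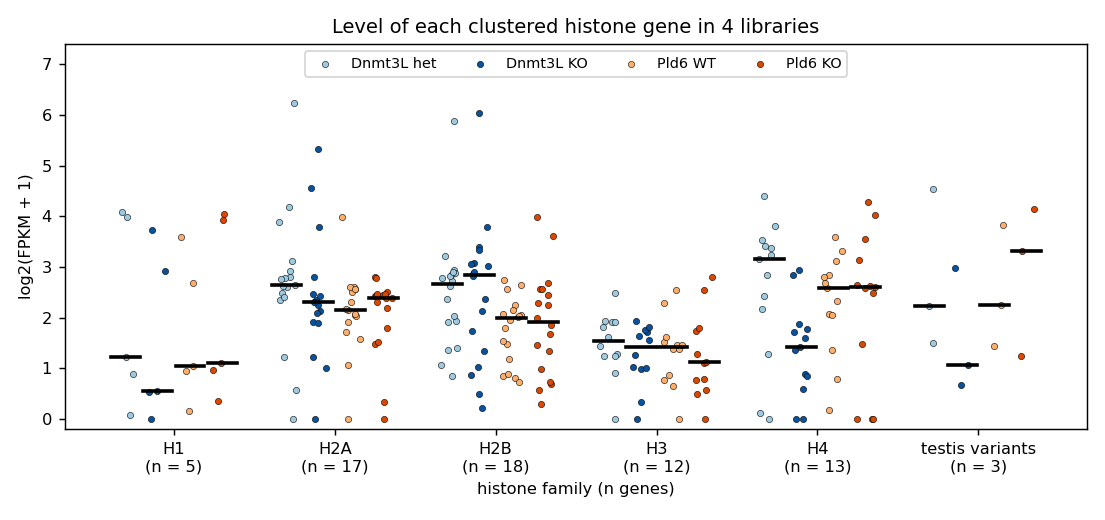
Each point is a clustered histone gene, with log2(FPKM + 1) on the y axis, the histone family on the x axis and the 4 libraries in colours; black lines are medians over the genes. The H4 genes sat lowest in the Dnmt3L KO (median FPKM 1.69), and the highest H2A and H2B genes were those of the libraries of the Dnmt3L line.

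Levels were also set beside the annotated end of the transcript. The 22 replication histone genes whose transcript ended near the stem-loop had a median FPKM of 5.89 in the heterozygote and 3.93 in the Pld6 WT library. The 21 genes whose transcript ran on had 3.52 and 3.11, and the 22 without a match had 3.54 and 2.02. These classes describe the annotation, and those 22 genes may have a stem-loop past the annotated end. Ranges within the classes overlapped widely, up to 74.1 FPKM among genes ending near the stem-loop and 20.01 FPKM among those running on in the heterozygote.

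Together the 68 genes took 164.6 of every 1000000 fragments in genes (95% exact binomial interval 161 to 168) in the Dnmt3L heterozygote and 119.7 (117 to 123) in the Dnmt3L KO library. They took 72.3 (69.8 to 75.0) in the Pld6 WT and 90.7 (87.3 to 94.1) in the Pld6 KO library. These intervals cover counting error only, since the reads carried no molecular identifiers. The libraries of the Dnmt3L line thus held more histone fragments than those of the Pld6 line, and the mutant lay below its own control in the Dnmt3L line and above it in the Pld6 line. Hist1h2bc and Hist2h2aa1 supplied much of the difference between the lines. Without them the 63 other replication histones took 99.8, 72.3, 60.3 and 74.5 of every 1000000 fragments in the Dnmt3L heterozygote, Dnmt3L KO, Pld6 WT and Pld6 KO libraries.

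The fragments in genes numbered 30439943 to 63875934 in a library. These totals exceed the reads a sample that the methods state, which was not resolved here, and every counting interval takes 1 fragment as 1 independent read. Pld6 was at 0.334 FPKM in the Pld6 KO against 8.55 to 19.5 FPKM in the other libraries, and Dnmt3l had 0 fragments in the Dnmt3L KO (which allows up to 3) against 20 to 101 elsewhere. Marker genes of cell types differed in level between the libraries. The median FPKM of 14 L/Z spermatocyte markers was 74.5 in the Dnmt3L heterozygote, 58.4 in the Dnmt3L KO, 184 in the Pld6 WT and 114 in the Pld6 KO library. That of 12 spermatid markers was 96.4, 0.782, 15.5 and 0.875 in the same order, and that of 12 Sertoli cell markers 183, 236, 7.69 and 20.4. In such bulk libraries fewer cells of a type and less RNA per cell cannot be told apart.

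The first comparison asked how the testis variants differed from the replication histones. Hist1h2ba (chr13:23933773-23934156, minus strand) was at 22.2 FPKM in the Dnmt3L heterozygote, 6.89 in the Dnmt3L KO, 13.3 in the Pld6 WT and 16.6 in the Pld6 KO library. It ranked first of the 19 H2B genes in both libraries of the Pld6 line, second in the heterozygote and 8 of 19 in the Dnmt3L KO. Relative to the median replication histone it was 4.85-fold, 2.70-fold, 4.25-fold and 4.65-fold higher in the 4 libraries in that order.

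Hist1h2aa (chr13:23934462-23934851, plus strand) was at 3.70 FPKM in the Dnmt3L heterozygote, 1.10 in the Dnmt3L KO, 3.74 in the Pld6 WT and 8.97 in the Pld6 KO library. The controls were close to each other and lay between the mutants. It ranked first of the 18 H2A genes in the Pld6 KO, 8 in the Pld6 WT, 15 in the heterozygote and 16 in the Dnmt3L KO. Hist1h1t (chr13:23695814-23696725, plus strand), whose protein is known from pachytene spermatocytes, was at 1.82 FPKM in the Dnmt3L heterozygote, 0.594 in the Dnmt3L KO, 1.71 in the Pld6 WT and 1.36 in the Pld6 KO library. It ranked 3 of 6 H1 genes in each of the 4 libraries.

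**Figure D2:**
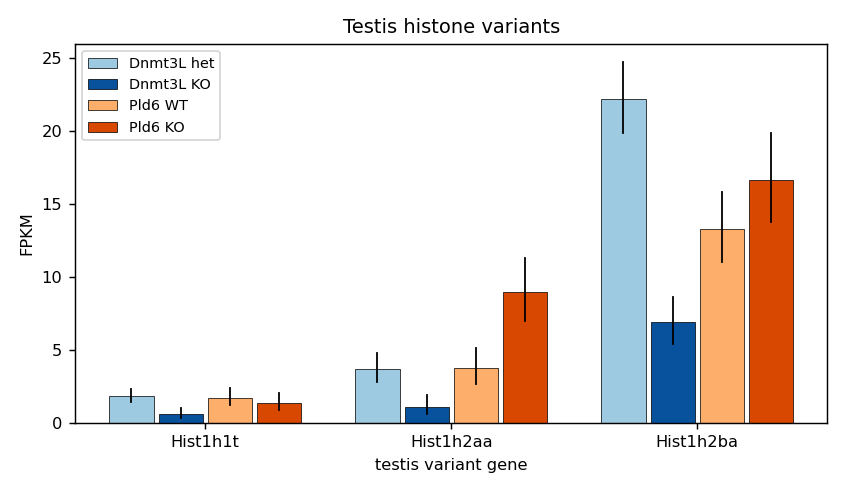
FPKM on the y axis of the testis variants Hist1h1t, Hist1h2aa and Hist1h2ba in the 4 libraries (coloured bars); vertical lines are 95% exact Poisson counting intervals from the fragments of that library. All 3 genes were lowest in the Dnmt3L KO, and Hist1h2aa was highest in the Pld6 KO at 8.97 FPKM.

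All 3 testis variants of the Dnmt3L KO lay below both controls (28.6% of all genes). Against the heterozygote Hist1h1t was 3.07-fold lower (95% counting interval 1.73 to 5.80), Hist1h2aa 3.37-fold lower (1.83 to 6.69) and Hist1h2ba 3.22-fold lower (2.50 to 4.2). Their median log2 change of FPKM + 1 against the mean of the controls was -1.17, beside -0.15 for the replication histones and 0 for all genes. Against the heterozygote alone the medians were -1.16 and -0.25, and on TMM-scaled fragments that of the testis variants was -0.61. Among the replication histones, the H4 genes had a median of -1.26 against the mean of the controls.

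In the Pld6 KO the testis variants moved in different directions against the Pld6 WT. Hist1h2aa was 2.40-fold higher (95% counting interval 1.6 to 3.66). Hist1h2ba was 1.25-fold higher (0.968 to 1.62) and Hist1h1t 1.25-fold lower (0.725 to 2.21), and both of these intervals include no change. The median log2 change of the 3 genes was -0.09 relative to the 2 controls averaged and 0.31 relative to the Pld6 WT alone, beside -0.18 and 0.00 for the replication histones.

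Of 12 pachytene spermatocyte markers, 9 were more than 2-fold below both controls in each mutant and 3 were not. The median FPKM of the 12 was 30.5 in the Dnmt3L heterozygote, 1.26 in the Dnmt3L KO, 26.4 in the Pld6 WT and 1.71 in the Pld6 KO library. Their summed FPKM was 1135 and 694 in the controls and 148 and 153 in the Dnmt3L KO and Pld6 KO. The part of later cells in the values of the testis variants was not tested.

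Hist1h2aa and Hist1h2ba are neighbours that are transcribed away from each other, with 280 bases between their RefSeq gene models. The ratio of Hist1h2aa to Hist1h2ba in FPKM was 0.167 in the Dnmt3L heterozygote, 0.159 in the Dnmt3L KO, 0.282 in the Pld6 WT and 0.540 in the Pld6 KO library. The ratio was highest in the Pld6 KO. It rests on 60, 13, 38 and 71 fragments of Hist1h2aa in the same order, and differences between the ratios were not tested. The region between the genes is shown because it lies upstream of both. The sequence is the RefSeq promoter window of Hist1h2aa (GRCm38.p6, chr13:23934187-23934486, plus strand), with 3 motifs in capitals on either strand: the octamer ATTTGCAT, the CCAAT box CCAAT and the TATA box TATAAA, none of which overlap here. The start of the Hist1h2ba gene model, at 23934156 on the minus strand, lies outside this window.
Hist1h2aa promoter: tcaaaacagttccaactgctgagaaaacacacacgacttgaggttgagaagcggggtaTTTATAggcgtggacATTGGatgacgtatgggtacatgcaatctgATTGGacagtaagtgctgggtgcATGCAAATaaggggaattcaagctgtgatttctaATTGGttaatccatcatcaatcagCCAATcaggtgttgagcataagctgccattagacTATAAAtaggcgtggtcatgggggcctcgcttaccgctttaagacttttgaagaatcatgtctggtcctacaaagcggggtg

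Promoter windows from 250 bases before to 50 bases after the start were given for 62 of the 68 genes. The octamer, an OCT1 motif of H2A and H2B promoters, was present in 7 of 18 H2A and 7 of 16 H2B genes, in 0 of the H1, H3 and H4 genes and in 1.97% of all 27025 genes with a window. CCAAT was present in all 6 H1, 18 H2A, 16 H2B and 10 H3 genes, in 3 of 12 H4 genes and in 41.1% of all genes. TATAAA was present in 8 of 12 H4 genes and in 15.7% of all genes. A match of letters is a description and not evidence of a bound factor.

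The second comparison asked which clustered histone genes differed between each mutant and the controls. A gene was called higher where its FPKM + 1 exceeded those of both controls over 2-fold, and lower where both controls exceeded it over 2-fold. In the Dnmt3L KO 0 of 68 genes were called higher (2.14% of all genes) and 7 lower (5.78% of all genes). The lower genes were Hist1h2aa, Hist3h2ba and the H4 genes Hist1h4b, Hist1h4c, Hist1h4d, Hist1h4j and Hist1h4n. Against the heterozygote alone 11 were lower (8.22% of all genes), and the gene called higher (3.00% of all genes) was Hist2h2aa2, which was at 0 FPKM in the heterozygote and 1.34 in the Dnmt3L KO.

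In the Pld6 KO 3 genes were called higher than both controls (1.04% of all genes) and 5 lower (5.41% of all genes). The higher genes were Hist1h2aa, Hist1h4d and Hist1h4m, and the lower were Hist1h2bp, Hist1h4n, Hist2h2aa1, Hist2h2ab and Hist3h2a. Against the Pld6 WT alone 6 were higher (4.69% of all genes) and the same 5 were lower (6.46% of all genes). With 1 library a mutant these counts have no test. The share of lower histone genes was 10.3% (Dnmt3L KO) or 7.35% (Pld6 KO), beside the shares of all genes given above. All genes include many at 0 FPKM. Genes of like level were therefore also counted, 6338 with a mean FPKM of 0.745 to 9.27, the 10th to 90th percentile of the replication histones. Of these, 281 were higher and 835 lower than both controls in the Dnmt3L KO, and 142 higher and 793 lower in the Pld6 KO. Against the control of its own line 1146 (Dnmt3L KO) and 894 (Pld6 KO) were lower. The share of lower histone genes was thus not above that of genes of like level. On TMM-scaled fragments, a scale with no length term, 0 histone genes were lower in the Dnmt3L KO. In the Pld6 KO 0 were higher and 3 lower on this scale. The added 1, here a fragment per 1000000, weighs more on short genes. A gene with under 1 fragment per 1000000 in either control could not be called lower. Before TMM scaling this held for Hist1h2aa, Hist1h4b, Hist1h4d, Hist1h4j and Hist3h2ba but not for Hist1h4c. The fall to 0 lower genes thus cannot decide whether those calls depend on the scale. With the Dnmt3L heterozygote left out, the Dnmt3L KO had 11 higher and 9 lower genes, and without the Pld6 WT 14 were lower in the Pld6 KO. These settings compare each mutant with the control of the other line alone. The shares of all genes under them were not counted, so these counts cannot be read as a result about histone genes. The heterozygote itself was more than 2-fold above the Pld6 WT at 11.1% of all genes and below it at 3.77%.

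The H4 genes accounted for most of the lower calls in the Dnmt3L KO. The 13 H4 genes had a median FPKM of 7.88 in the Dnmt3L heterozygote, 1.69 in the Dnmt3L KO, 5.03 in the Pld6 WT and 5.11 in the Pld6 KO library. All 13 lay below the heterozygote in the Dnmt3L KO, as did 38.1% of all genes and 2802 of the 6338 genes of like level. Hist1h4m and Hist2h4, however, had at most 1 fragment in either library. Together the 13 H4 genes took 17.6 of every 1000000 fragments (16.6 to 18.7) in the heterozygote, 5.27 (4.65 to 5.94) in the Dnmt3L KO, 11.7 (10.6 to 12.8) in the Pld6 WT and 15.2 (13.9 to 16.7) in the Pld6 KO library.

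Hist1h4j was at 20.01 FPKM in the Dnmt3L heterozygote, 1.69 in the Dnmt3L KO, 7.65 in the Pld6 WT and 10.7 in the Pld6 KO library. The Dnmt3L KO stood alone, 11.8-fold below its own control (95% counting interval 6.07 to 26.4, from 9 and 146 fragments). Hist1h4b was at 6.16, 0.852, 3.17 and 1.78 FPKM in the same order of libraries, 7.23-fold (3.77 to 15.5) below the heterozygote in the Dnmt3L KO. Hist1h4c was at 9.35, 2.44, 8.94 and 5.11 FPKM, with both mutants below both controls and the Dnmt3L KO lowest, 3.83-fold (2.36 to 6.53) below the heterozygote.

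Hist1h4d was at 3.52 FPKM in the Dnmt3L heterozygote, 0.508 in the Dnmt3L KO, 6.21 in the Pld6 WT and 15.4 in the Pld6 KO library. As with Hist1h2aa, the controls lay between the mutants. It was 6.94-fold lower in the Dnmt3L KO (2.50 to 26.8, from 4 and 38 fragments) and 2.48-fold higher in the Pld6 KO (1.69 to 3.69, from 81 and 42 fragments), in each case relative to the control of the same line. Hist1h4i, at 10.5, 6.20, 11.1 and 18.5 FPKM in the same order, followed this order of libraries without passing the 2-fold limit.

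The H4 median stood below those of the other families in the Dnmt3L KO, a difference that was not tested. Median log2 changes against the heterozygote were -1.42 for H4, -0.35 for H1, -0.33 for H2A, -0.21 for H3 and 0.03 for H2B. On TMM-scaled fragments the H4 median against the mean of the controls was -0.64 in place of -1.26. Of 18 H2B genes, 10 lay above both controls (29.1% of all genes, 2465 of the 6338 genes of like level) and 2 below both. Against the heterozygote alone 10 lay above and 8 below. Against the Pld6 WT the Pld6 KO medians were 0.00 for H4, 0.47 for H1, 0.24 for H2A, -0.10 for H3 and -0.06 for H2B.

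**Figure D3:**
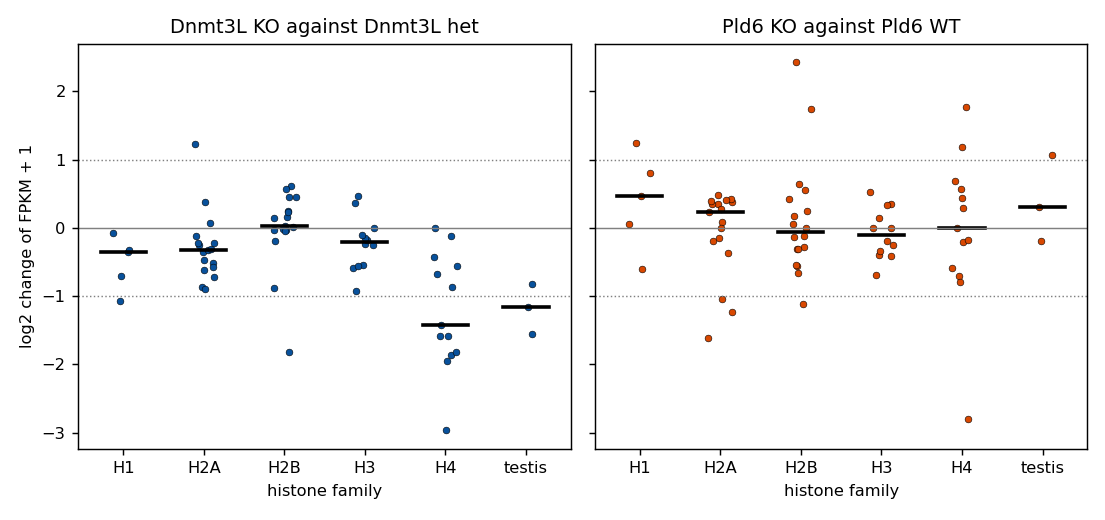
Log2 change of FPKM + 1 (y axis) of each clustered histone gene in the Dnmt3L KO against the Dnmt3L heterozygote (left) and in the Pld6 KO against the Pld6 WT (right), by family; black lines are medians and dotted lines mark 2-fold. The H4 median was -1.42 on the left and 0.00 on the right, and that of the testis variants -1.16 and 0.31.

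H4 genes were short, and other short genes were lower more often than long genes in the Dnmt3L KO. The effective length implied by fragments and FPKM was 113 to 254 bases for the H4 genes in the Pld6 WT. Of 124 other genes of that effective length and a mean FPKM of at least 1, 42.7% were more than 2-fold below the heterozygote in the Dnmt3L KO, beside 53.8% of the H4 genes. Their median log2 change was -0.62, beside -1.42 for H4. Among 11927 other genes with an effective length over 1000 bases, 8.39% were lower and the median was 0.14. Among H2A genes, with effective lengths of 237 to 396 bases, 0 were lower. In the Pld6 KO against the Pld6 WT the short genes and H4 differed. Of the 124 genes, 25% were lower and 10.5% higher, with a median of -0.29. Of the H4 genes, 7.69% were lower and 15.4% higher, with a median of 0.00. The part of transcript length in the low H4 values was not tested.

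RNAs that carry no polyA tail by nature were also read in these libraries. Of 9 such RNAs, Rmrp, Rpph1 and Rn4.5s (named after their values were seen) were called lower than both controls in the Dnmt3L KO (5.78% of all genes). Rpph1 had 11 fragments in the Dnmt3L KO against 131 in the heterozygote, and Rmrp 34 against 123. Rn4.5s rests on few fragments, 2 in the Dnmt3L KO against 12 in the heterozygote and 8 in the Pld6 WT. The 2 higher RNAs (2.14% of all genes) also rest on few fragments, 5 for Scarna2 and 14 for Rnu11 in the Dnmt3L KO. Rn45s, the ribosomal RNA precursor, was at 1027 FPKM in the Dnmt3L heterozygote, 1015 in the Dnmt3L KO, 1811 in the Pld6 WT and 1367 in the Pld6 KO library. The part of untailed RNA in the H4 values was not tested.

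Hist3h2ba, an H2B gene of the Hist3 cluster, was at 3.08 FPKM in the Dnmt3L heterozygote, 0.162 in the Dnmt3L KO, 3.12 in the Pld6 WT and 3.89 in the Pld6 KO library. The Dnmt3L KO value rests on 2 fragments against 52 in the heterozygote, a ratio of 19.0 with a counting interval of 5.0 to 161. Hist3h2a of the same cluster showed another pattern, with 17.2, 22.6, 4.90 and 1.86 FPKM in the same order of libraries.

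The linker histone genes Hist1h1a to Hist1h1e encode the somatic H1 proteins, and only Hist1h1a and Hist1h1c were abundant. Hist1h1a was at 14.9 FPKM in the Dnmt3L heterozygote, 6.57 in the Dnmt3L KO, 11.0 in the Pld6 WT and 15.6 in the Pld6 KO library. Hist1h1c was at 15.9, 12.2, 5.45 and 14.3 FPKM, with the Pld6 WT standing apart from the other libraries. In the Pld6 KO it was 2.62-fold (2.09 to 3.31) above the Pld6 WT but not above the heterozygote.

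Hist1h1d and Hist1h1e stayed between 0.275 and 1.34 FPKM in the 4 libraries. Hist1h1b had 18 fragments in the Pld6 KO and at most 3 in each other library. All 5 of these somatic H1 genes were below the heterozygote in the Dnmt3L KO, as were 52 of the 68 clustered histone genes and 38.1% of all genes. Hist1h1b counted here on 0 against 2 fragments, and the counting interval of Hist1h1e included no change.

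Near-identical gene copies limited the other calls. At the read length of 50 bases, a median of 51.9% of the 50-base windows of a histone gene's GENCODE transcripts also occurred in transcripts of another gene, and 12 of 68 genes shared more than 90%. Hist1h4m was at 0.000935 FPKM in the Dnmt3L heterozygote, 3.06e-05 in the Dnmt3L KO, 1.57 in the Pld6 WT and 7.78 in the Pld6 KO library. Its near copy Hist1h4n was at 7.88, 2.31, 5.99 and 0.00130 FPKM.

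The sum of the pair was 7.88, 2.31, 7.56 and 7.78 FPKM, so the pair differed little between the Pld6 KO and the controls and only its division between the copies changed. The calls of Hist1h4m as higher and of Hist1h4n as lower in the Pld6 KO are therefore uncertain. In the Dnmt3L KO the sum kept the call of lower, with a log2 change of -1.40 against the mean of the controls.

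Hist2h2aa1 was at 74.1 FPKM in the Dnmt3L heterozygote, 39.2 in the Dnmt3L KO, 14.96 in the Pld6 WT and 4.23 in the Pld6 KO library. Its copy Hist2h2aa2 was at 0, 1.34, 2.28 and 3.57 FPKM, and all windows of both were shared. The pair sum of 74.1, 40.5, 17.2 and 7.80 FPKM was still more than 2-fold lower in the Pld6 KO than in both controls, with a log2 change of -2.41 against their mean and -1.05 against the Pld6 WT. Hist1h2ao and Hist1h2ap, Hist2h3c1 and Hist2h3c2, and Hist1h2bq and Hist1h2br are further such pairs, and 0 of their sums passed the 2-fold limit in either mutant.

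**Figure D4:**
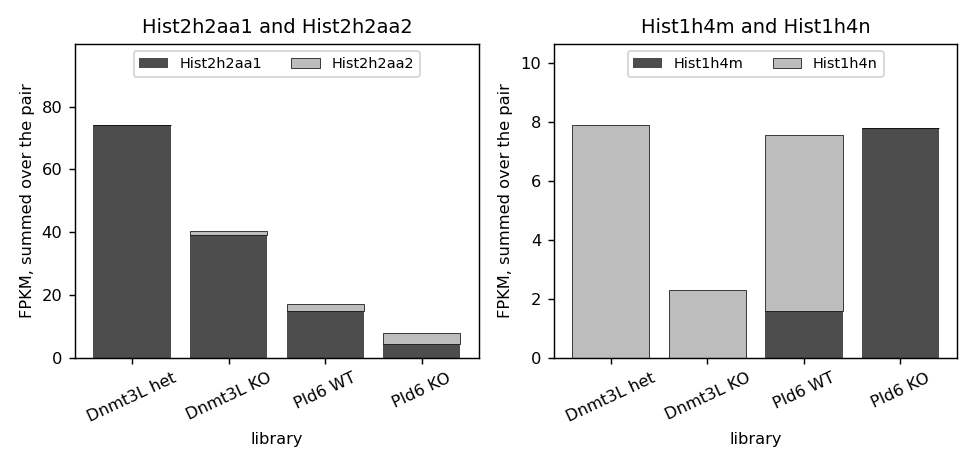
FPKM (y axis) of Hist2h2aa1 and Hist2h2aa2 (left) and of Hist1h4m and Hist1h4n (right), stacked to the sum of the pair, in the 4 libraries. The Hist1h4m and Hist1h4n sum was 7.56 to 7.88 FPKM in 3 libraries and 2.31 in the Dnmt3L KO, while its division between the copies differed between libraries.

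Hist2h2bb, named after its values were seen, was at 6.52 FPKM in the Dnmt3L heterozygote, 6.46 in the Dnmt3L KO, 1.27 in the Pld6 WT and 11.2 in the Pld6 KO library. All of its windows occurred in other genes. The remaining lower genes of the Pld6 KO were Hist2h2ab, at 4.31, 4.56, 1.98 and 0.268 FPKM in the same order (2 fragments in the Pld6 KO), and Hist1h2bp, at 5.90, 6.05, 4.95 and 1.74 FPKM. The effective length of Hist1h2bp implied by fragments and FPKM differed between libraries.

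The third comparison was between the controls and between the lines. The Dnmt3L heterozygote was more than 2-fold above the Pld6 WT at 13 of the 68 genes (11.1% of all genes) and below it at 2 (3.77% of all genes). Of the 6338 genes of like level, 1198 were above and 301 below by this limit, so the histone share above was close to theirs. The median log2 difference of the replication histones was 0.35, larger in size than their median change in either mutant against the mean of the controls. In 6 genes both libraries of the Dnmt3L line lay more than 2-fold above both of the Pld6 line (4.5% of all genes), and the reverse held for 1, Hist1h4m (0.346% of all genes). Among the 6338 genes of like level these counts were 354 and 31.

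The 6 genes were Hist1h2bc, Hist1h2bh, Hist2h2aa1, Hist2h2ac, Hist2h3c2 and Hist3h2a, of which 3 belong to the Hist2 cluster. Hist1h2bc, the most abundant H2B gene of the Dnmt3L line, was at 58.1 FPKM in the Dnmt3L heterozygote, 64.5 in the Dnmt3L KO, 3.76 in the Pld6 WT and 14.9 in the Pld6 KO library. It alone took 18.9% and 26.9% of the histone fragments of the Dnmt3L line libraries, against 2.49% and 8.33% in the Pld6 line. Hist2h2ac was at 13.9, 12.8, 3.51 and 2.49 FPKM, with no overlap between the lines.

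**Figure D5:**
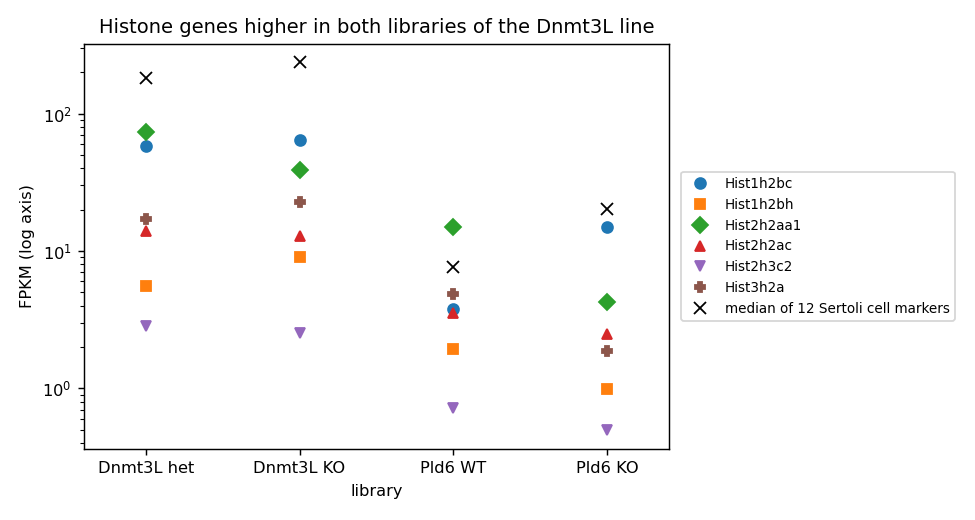
FPKM on a log axis of the 6 histone genes that were more than 2-fold higher in both libraries of the Dnmt3L line, with the median of 12 Sertoli cell markers (crosses). Of these genes only Hist1h2bc was, like the marker median, lowest in the Pld6 WT (3.76 and 7.69 FPKM). Of the 12 markers, Amh was lowest in the Pld6 KO (0.560 FPKM), as was the summed FPKM of 6 erythroid markers (19.0). Hist1h2bh, Hist2h2aa1, Hist2h2ac, Hist2h3c2 and Hist3h2a were lowest in the Pld6 KO.

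Markers of several other cell types were also higher in the Dnmt3L line. All 12 Sertoli cell markers were more than 2-fold higher in both libraries of the Dnmt3L line, none was at 0 in any library, and their summed FPKM was 6767 in the Dnmt3L heterozygote, 9340 in the Dnmt3L KO, 233 in the Pld6 WT and 640 in the Pld6 KO library. Of 6 erythroid markers, 4 were more than 2-fold higher in both libraries of this line. The summed FPKM of the 6 was 848, 179, 35.5 and 19.0 in the same order. The median FPKM of 6 Leydig cell markers was 38.0, 31.5, 2.02 and 14.7, and that of 5 macrophage markers 10.5, 17.8, 2.82 and 7.74. The part of these cells in the levels of the 6 histone genes was not tested. Hist1h2bm, another abundant H2B gene, was also highest in this line, at 8.34, 12.9, 3.06 and 4.94 FPKM.

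Genes that serve the histone mRNAs themselves were compared from a separate list. Slbp, which binds the stem-loop, was at 119 FPKM in the Dnmt3L heterozygote, 113 in the Dnmt3L KO, 150 in the Pld6 WT and 136 in the Pld6 KO library. Npat, the activator of histone transcription, was at 12.2, 13.8, 27.3 and 26.7 FPKM and followed the line rather than the mutation. Of the 13 genes on the list 0 were called higher in either mutant, 0 lower in the Pld6 KO and 1 lower in the Dnmt3L KO. This was Coil, the coilin of Cajal bodies, at 22.6, 9.85, 24.0 and 13.9 FPKM.

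Lsm10, a U7 snRNP protein, was at 57.2, 20.9, 29.5 and 28.3 FPKM in the same order. Its partner Lsm11 was at 2.37, 3.50, 2.35 and 2.14 FPKM, and the U7 RNA gene Rnu7 was listed at 0 in all 4 libraries. The cleavage factors Cpsf2, Cpsf3, Sympk and Cstf2, the exonuclease gene Eri1 and the locus body genes Casp8ap2 and Zfp473 were not beyond both controls by 2-fold in either mutant.

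Of the 25 S phase genes, 19 were higher in both libraries of the Pld6 line than in both of the Dnmt3L line (19.8% of all genes), with a median FPKM of 34.7 in the Dnmt3L heterozygote, 33.4 in the Dnmt3L KO, 62.8 in the Pld6 WT and 54.7 in the Pld6 KO library. Of the 68 clustered histone genes, 11 were. Pcna, the clamp of DNA polymerase, was at 263, 206, 290 and 189 FPKM, and 0 of the 25 genes were called in either mutant. Of 7 genes of spermatid chromatin, 6 (Dnmt3L KO) and 7 (Pld6 KO) were lower than in both controls, and Prm1 was at 2372, 1.81, 16.3 and 2.87 FPKM.

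As a test, edgeR's quasi-likelihood model was fitted across all genes with Benjamini-Hochberg adjustment. For the Pld6 KO, 0 of 18657 genes (0%) and 0 of 65 clustered histone genes tested passed an adjusted p of 0.05 by edgeR. The smallest adjusted p of a histone gene by edgeR was 0.327, for Hist1h4n. At an unadjusted p under 0.05 there were 2 histone genes, Hist1h4n and Hist2h2aa1, both lower (7.96% of all genes in either direction). DESeq2 called Hist2h2aa1 lower in the Pld6 KO at an adjusted p of 0.0290 and no other of the 63 histone genes given an adjusted p (5.47% of all genes).

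For the Dnmt3L KO, 0 of 18657 genes and 0 of 65 histone genes passed by edgeR. DESeq2 called 0 of 63 histone genes (5.27% of all genes). By edgeR 0 histone genes had an unadjusted p under 0.05 (8.81% of all genes). The smallest adjusted p by edgeR was 0.587, for Hist3h2ba. With both mutants against both controls, 0 of 17686 genes and 0 of 63 histone genes passed by edgeR, and 0 histone genes had an unadjusted p under 0.05 (9.48% of all genes). DESeq2 called 0 of 66 histone genes (6.49% of all genes). With the line as a term, which pairs each mutant with the control of its line, edgeR called 131 genes higher and 1058 lower (6.72% of all genes) and 0 of 63 histone genes. The smallest adjusted p of a histone gene in that edgeR fit was 0.140, and Hist2h2aa1 alone had an unadjusted p under 0.05 (19.4% of all genes). These p-values measure only the spread between the libraries, which without the line term holds the difference between the lines. The biological coefficient of variation in the fit of 3 groups was 0.589. The tests were of single genes, and no pair sum was tested. The Hist1h4n result rests on its uncertain division from Hist1h4m. The sum of that pair was 7.78 FPKM in the Pld6 KO against 7.88 (heterozygote) and 7.56 (Pld6 WT). Hist2h2aa1 likewise shares all its windows with Hist2h2aa2.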

How the data were processed

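PolyA(+) RNA of FACS-purified L/Z spermatocytes was sequenced in 4 libraries as stranded 50-bp single-end reads. The authors aligned reads with TopHat and quantified genes with Cuffdiff (mm10, per the submitters' processing notes, versions not given in the sources used here). How reads matching several genes were divided is not given either. The deposited table holds the authors' estimated counts of fragments and, in FPKM, the same values scaled by the authors to length and depth. Values were marked as failed for 28 genes, and 0 of the histone values were marked as failed. Fragments in genes numbered 63875934 (Dnmt3L heterozygote), 49932330 (Dnmt3L KO), 40541149 (Pld6 WT) and 30439943 (Pld6 KO). A count of 0 allows up to 3 fragments.

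Changes were computed as log2((FPKM + 1)/(mean FPKM of the controls + 1)), which understates changes of low genes. Estimated counts, rounded to whole numbers, were tested with edgeR 4.0.16 (TMM, filterByExpr, 3 groups with 1 residual degree of freedom, or both mutants against both controls with 2) and DESeq2 1.42.0. The edgeR step was tested on simulated data. Alternatives were a pseudocount of 0.1 FPKM, a filter of mean FPKM of at least 1, TMM-scaled fragments, a 3-fold limit, RLE normalization, no filter, a line term and each library left out. Counting intervals of folds and shares are exact 95% intervals.

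Named genes were the testis variants, all H1 genes, the 8 core histone genes with the highest mean FPKM, up to 5 genes a direction beyond both controls in each mutant with at least 20 fragments in 1 library, genes opposite in the mutants and the 3′ end processing list, with up to 3 genes of each other list. Others were named after their values were seen. The members and lists were chosen with earlier results of these data known. All 68 genes matched GENCODE M21 by symbol and RefSeq GRCm38.p6 by older symbol. Promoters are from RefSeq and stem-loops from GENCODE transcripts. Retrotransposon reads were not analysed.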

Additional observations from a re-analysis of the deposited data

Results flagged for a closer look

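The testis variant gene Hist1h2aa and the H4 gene Hist1h4d lay more than 2-fold beyond both controls in opposite directions in the mutants. For Hist1h2aa the log2 change against the control of its own line was -1.16 (Dnmt3L KO) and 1.07 (Pld6 KO), a difference of 2.24. For Hist1h4d these changes were -1.59 and 1.18, a difference of 2.77. Each mutant had 1 library, so neither difference was tested. On TMM-scaled fragments neither gene was more than 2-fold beyond both controls in either mutant. There 1 was added to the fragments per 1000000, so a lower call needed over 1 per 1000000 in both controls. Before TMM scaling, Hist1h2aa (60 of 63875934 and 38 of 40541149 fragments) and Hist1h4d (38 of 63875934 in the heterozygote) lay under this. Their missing lower calls on this scale therefore decide nothing. Higher calls were possible, and the Pld6 KO changes against the mean of the controls were 0.71 and 0.94.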

How the results depend on the processing

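Against the mean of the controls, the median log2 change of the testis variants in the Dnmt3L KO was -1.17, and it was -1.43 with a pseudocount of 0.1 FPKM, -0.61 on TMM-scaled fragments and -1.16 to -0.85 with 1 control left out. That of the H4 genes, with alternatives chosen after seeing the data, was -1.26, and it was -1.81, -0.64 and -1.42 to -0.99 in the same order. In the Pld6 KO, leaving out 1 control gave -0.26 to 0.31 for the testis variants and -0.76 to 0.00411 for H4. The medians of the replication histones moved by less than the spread between the controls under every alternative run, and were 4.33e-05 (Dnmt3L KO) and 0.00411 (Pld6 KO) with the heterozygote left out.

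The 7 genes lower in the Dnmt3L KO became 11 with a pseudocount of 0.1 FPKM, 0 on TMM-scaled fragments, 3 at over 3-fold and 9 to 11 with 1 control left out, and the 0 higher became 1 (Pld6 WT left out) and 11 (heterozygote left out). In the Pld6 KO the 3 higher became 0 on TMM-scaled fragments, 1 at over 3-fold and 4 to 6 with 1 control left out. The 5 lower became 8 with a pseudocount of 0.1 FPKM, 3 on TMM-scaled fragments, 2 at over 3-fold, 5 (heterozygote left out) and 14 (Pld6 WT left out). Leaving out the own-line control of a mutant sets that mutant against the other line alone. Shares of all genes under that setting were not counted. DESeq2 called 1 histone gene in the Pld6 KO and edgeR 0. The causes were not tested. Of 224 alternative values of named genes, 9 had the opposite sign, 12 lost the 2-fold call, all on TMM-scaled fragments, and 15 gained it in the same direction. On that scale the added 1 shrinks changes of genes with few fragments and keeps some from a lower call. The counts of lower genes and the 12 lost calls there cannot decide whether the calls depend on the scale. Hist2h2aa1 in the Dnmt3L KO turned from -0.18 to 1.33 with the heterozygote left out (-0.90 with the Pld6 WT left out). Hist1h2bc in the Pld6 KO turned from -1.001 to 1.74 (-1.89), and both were then more than 2-fold higher.

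The labels give no replicate numbers to pair by. Pairing by line, as a term for both mutants, raised the genes called by edgeR from 0 to 1189, with 0 histone genes among them. Low counts limit the H4 and testis variant values, which rest on as few as 4 fragments for Hist1h4d and 13 for Hist1h2aa.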
